A study of Mus musculus with 3 samples.

Results

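Regenerating muscle was examined on the Day 7 section of a mouse skin wound series, in spots chosen by their own counts of 5 muscle genes. A spot became a member when it held 500 or more unique molecular identifiers (UMIs, one per captured RNA molecule) and 5 or more UMIs summed over *Actc1*, *Myh3*, *Myh8*, *Myl4* and *Myog*. This rule took 902 of the 2657 Day 7 spots that reached 500 UMIs, out of 14976 spots on all slides. The comparison set was 377 mature muscle spots of the same slide, in which *Acta1* plus *Ckm* made up 2% or more of the UMIs and none of the 5 genes had a UMI. The counts of these 7 genes chose both sets and are therefore given as a description.

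Adult muscle fibres are repaired by satellite cells, which divide, switch on the transcription factor *Myog*, fuse through the membrane proteins encoded by *Mymk* and *Mymx*, and build new fibres. New fibres first assemble sarcomeres from developmental proteins, among them cardiac actin (*Actc1*), embryonic myosin (*Myh3*), perinatal myosin (*Myh8*) and the atrial and embryonic light chain (*Myl4*), before adult fast isoforms replace them. In mouse skin the striated muscle is the panniculus carnosus, a thin sheet under the dermis and fat that a full-thickness wound cuts through.

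The tissue was fresh frozen wounded dorsal skin of C57BL/6J mice, adult age-matched males per the methods of the study, in which several full-thickness punch wounds were made per animal. One section each was taken on Day 3, Day 7 and Day 14 after wounding, so every contrast between days or places rests on single sections and no test across animals was possible. No unwounded section was analysed here. A Visium spot is a small area that can hold several cells, so fewer cells of a type and less RNA per cell cannot be told apart. All 3 slides carry the same 4992 barcodes, which name positions, not cells. The spots with 500 or more UMIs numbered 1194, 2657 and 2469 on Day 3, Day 7 and Day 14 and held 3045627, 10238264 and 8679104 UMIs. Of the Day 7 spots, 539 lay inside the tissue mark of the deposited position list and 2118 outside it.

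Member spots covered a broad area of the slide and followed sequencing depth. Inside the tissue mark lay 320 members and outside it 582. Members held 5511.5 UMIs at the median, against 850 in the mature muscle spots. Of spots with 500 to 1000 UMIs, 2.90% were members (95% binomial interval 1.76 to 4.49%), and of spots with 8000 or more UMIs 86.4% were (82.1 to 89.9%). Pooled *Actc1*, in UMIs per 1000000 UMIs (CPM), went the other way, from 1497 CPM in the shallowest class to 631 CPM in the deepest. When every spot was thinned to 1000 UMIs, which left out 655 shallower spots, 141 of 2002 spots (7.04%) still met the rule, 7 of them inside the tissue mark. Just inside the threshold stood 156 spots with 5 UMIs of the rule genes, with a median of 3903 UMIs, and just outside it 193 spots with 4, with a median of 2648. *Acta1* plus *Ckm* made up 3.42% and 3.69% of the UMIs at the median in these spots.

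**Figure D1:**
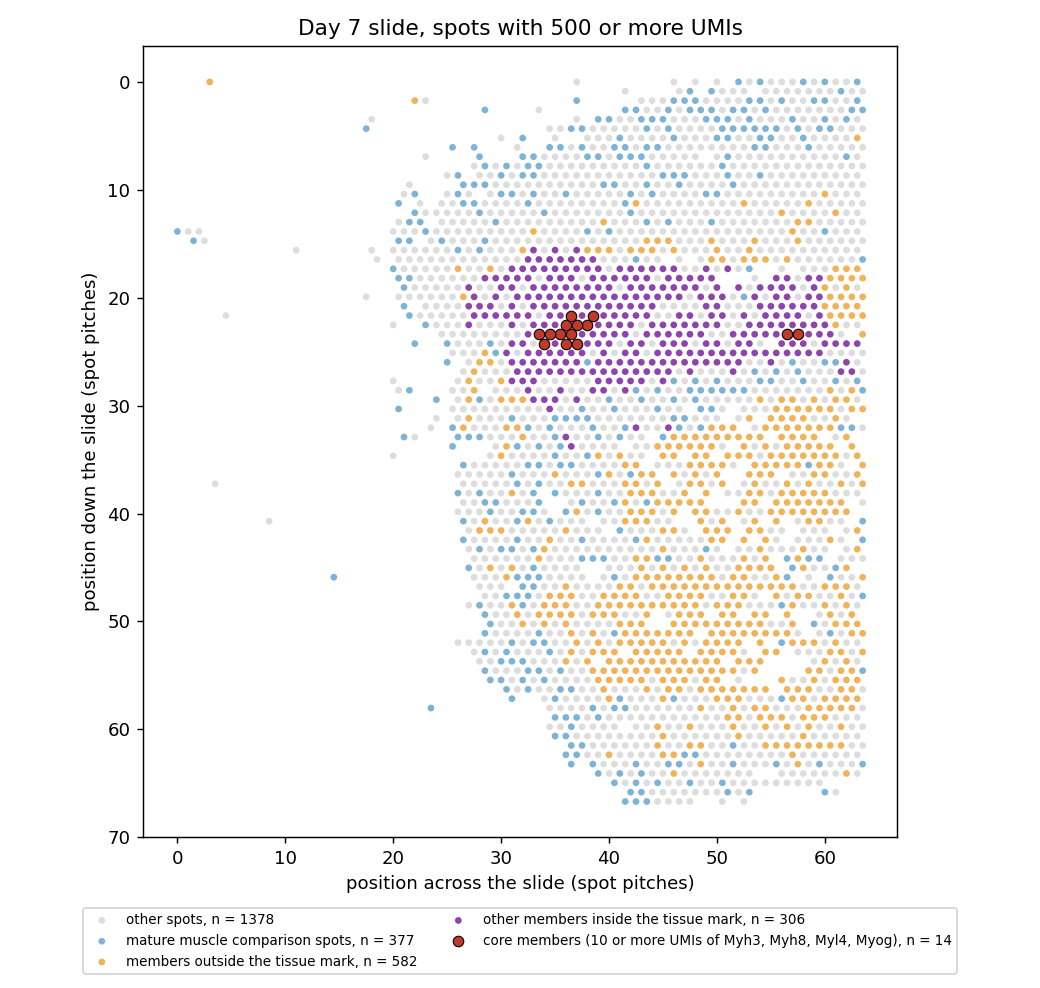
Map of the Day 7 slide with both axes in spot pitches, the distance between neighbouring spots. Each point is a spot with 500 or more UMIs, coloured by set, and the 14 core spots (10 or more UMIs of *Myh3*, *Myh8*, *Myl4* and *Myog*) lie inside the tissue mark in 2 places while most of the 582 members outside the mark lie in the lower right of the slide.

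*Actc1* supplied most of the UMIs that made a spot a member. Over the 902 members it gave 8770 UMIs, or 84.9% of the rule genes' UMIs, whereas *Myl4* gave 970, *Myh8* 339, *Myog* 193 and *Myh3* 54. No UMI of the other 4 genes was found in 446 members (49.4%), and 44 members had 5 or more UMIs of those 4 genes, 38 of them inside the tissue mark. All 5 genes occurred together in 5 members. Of the 5, *Myh3* and *Myh8* lie in 1 cluster of myosin heavy chain genes on chromosome 11 (GENCODE M21 on GRCm38), where *Myh3* spans chr11:67078300-67102291 and *Myh8* chr11:67277124-67308634, with the adult genes *Myh2*, *Myh1* and *Myh4* between them. *Myl4* is on the same chromosome at chr11:104550663-104595753, *Actc1* at chr2:114047282-114053548 and *Myog* at chr1:134289989-134292548. Genes of 1 family share coding sequence, so levels of near-identical paralogs such as *Actc1* and *Acta1* are uncertain where reads could be shared, and the treatment of such reads is unknown here.

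The 4 genes other than *Actc1* were concentrated in few spots. A core of 14 spots, defined after the values were seen as those with 10 or more UMIs of *Myh3*, *Myh8*, *Myl4* and *Myog*, held 653 of the 1848 UMIs of these genes on the slide (35.3%) in 1.80% of its UMIs. In the core, these 4 genes ranged from 12 to 111 UMIs a spot with a median of 25. The other 306 members inside the tissue mark had at most 9. Of those 306 spots, 212 were at least as deep as the shallowest core spot (7304 UMIs), and these had a median of 2 such UMIs, with 31 at 0.

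*Myl4* was at 2261 CPM in the core (95% counting interval 2049 to 2489) and at 111 CPM in the other marked members. *Myh8* was at 916 CPM (783 to 1065) in the core and 36.4 CPM in the other marked members, *Myog* at 239 CPM (173 to 320) and 28.3 CPM, and *Myh3* at 125 CPM (79.1 to 187) and 5.97 CPM. *Actc1* differed least, at 1367 CPM (1203 to 1546) and 639 CPM. Counts of *Myl4* ran from 7 to 77 a core spot with a median of 14, and those of *Myh8* from 2 to 47 with a median of 6.5. *Myog* was found in 9 of the 14 core spots and *Myh3* in 7. These values describe the selection and carry no test.

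**Figure D2:**
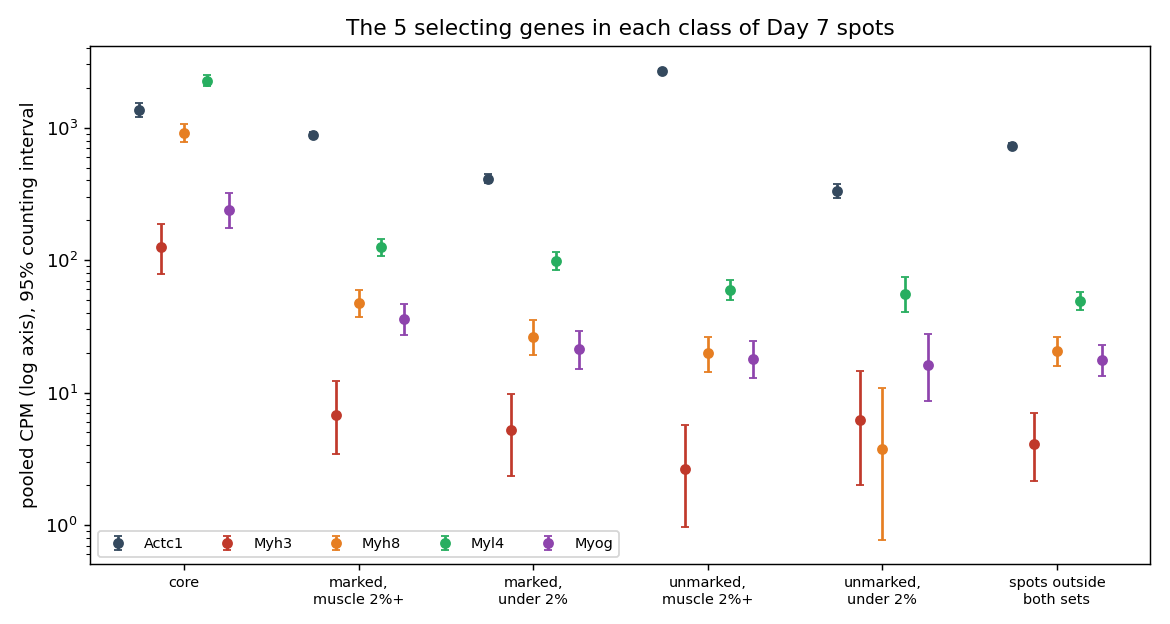
Pooled CPM (log axis) of the 5 selecting genes in the 14 core spots, in the other 4 classes of members and in the 1378 spots of neither set, with 95% counting intervals. *Actc1* was at 2682 CPM in unmarked muscle members, above its 1367 CPM in the core, whereas the other 4 genes were highest in the core.

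The core lay in 2 patches. The larger had 12 spots over 4 rows and spanned 5 pitches across, and the smaller had 2 spots in 1 row, 18.1 pitches from the larger at the nearest. In the rows that hold both patches, the 69 marked spots between them had the granulation tissue list (10 genes of the wound bed such as *Postn* and *Tnc*) at 11131 CPM and the adult fast fibre list at 26997 CPM. Left of both patches the same lists were at 6682 and 59226 CPM, and right of both at 7226 and 58208 CPM. Both patches thus sat where the fast fibre genes gave way to granulation tissue genes, with the columns of the larger patch at 8915 and 40981 CPM and those of the smaller at 7698 and 49019 CPM.

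The surroundings of the core are given as a description, since every marked spot outside it holds at most 9 UMIs of the 4 genes by definition. The 4 genes were at 3541 CPM in the core, 447 CPM (366 to 541) in the 30 marked spots 1 pitch away, 248 CPM (198 to 307) over 1 to 2 pitches, 156 CPM (132 to 182) over 2 to 4 pitches and 128 CPM (115 to 143) in the 347 marked spots farther off. *Actc1* changed less, from 1367 CPM to 775, 764, 624 and 525 CPM. *Acta1* plus *Ckm* stayed between 19373 and 21997 CPM at all 5 distances.

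The 12 spots of the larger patch differed in how much mature muscle they held. *Acta1* plus *Ckm* made up 2.17 to 5.72% of the UMIs in the 6 spots with more of it and 0.94 to 1.97% in the other 6, and the granulation list 0.383 to 0.75% and 0.82 to 1.56%. *Myh1*, an adult fast myosin, had 330 UMIs in the first 6 spots (11 to 116 a spot) and 49 in the others (3 to 15). *Actc1* had 158 UMIs (8 to 65) and 53 (4 to 14). The total UMIs went the other way, with 66088 in the first 6 spots and 86423 in the others. *Myl4* had 195 and 188 UMIs, about level as counts but a larger share of the UMIs in the first 6 spots. *Myog* had 16 and 15 UMIs, of which 13 and 11 came from 1 spot each. The fusion gene *Mymx* had 1 and 19 UMIs, 11 of the 19 in 1 spot and 6 in another. These divisions were made after the values were seen and carry no test.

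**Figure D3:**
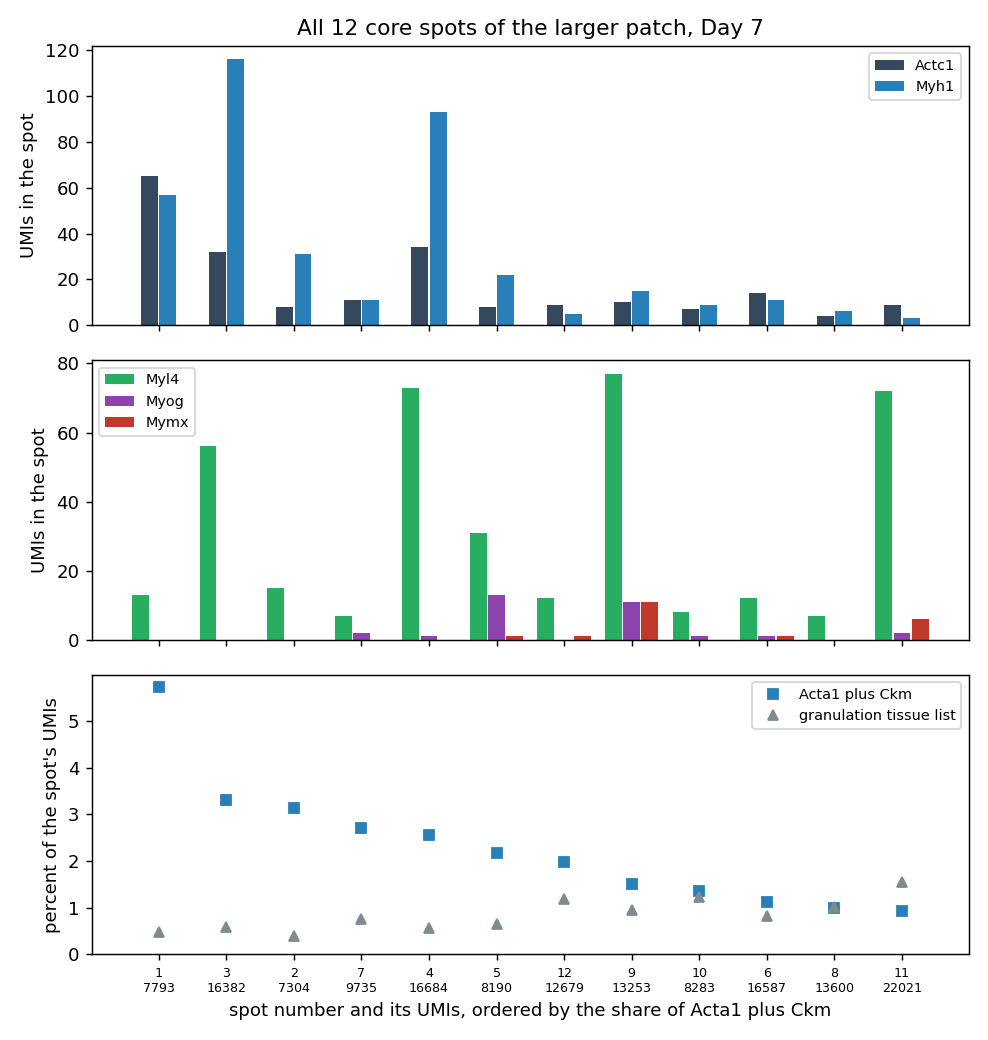
UMIs of *Actc1* and *Myh1* (top) and of *Myl4*, *Myog* and *Mymx* (middle) in all 12 core spots of the larger patch, and percent of each spot's UMIs from *Acta1* plus *Ckm* and from the granulation tissue list (bottom), ordered by the share of *Acta1* plus *Ckm*. *Myh1* is highest among the spots on the left, while *Myl4* is high in spots at both ends and *Myog* comes mostly from 2 spots.

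In the smaller patch, 1 of the 2 spots held most of the early genes. It had 21 *Actc1*, 3 *Myh3*, 19 *Myh8*, 27 *Myl4* and 10 *Myog* UMIs, together with 10 of *Mymk*, 13 of *Mymx* and 1 each of the satellite cell gene *Pax7* and the myogenic factor *Myod1*. The spot beside it had 20 *Actc1*, 0 *Myh3*, 2 *Myh8*, 7 *Myl4* and 3 *Myog* UMIs and none of *Mymk* or *Mymx*.

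The core was then compared with the other 306 marked members over all genes with 50 or more UMIs over the 2 sets together, leaving out the 5 rule genes, *Acta1* and *Ckm*. A gene was called when the bound of its 95% counting interval nearer to no change lay beyond 2-fold. Of 8697 genes, 50 were higher in the core (0.575%) and 6 lower (0.069%), with a median log2 ratio of -0.16 over all genes tested. The 50 genes had a UMI in 4 to 14 of the 14 spots, with a median of 11, and 46 of them were above the other marked members in both patches. The 4 exceptions were *Ccn3*, with 39 UMIs in the larger patch and 0 in the smaller, *Fhl1*, *Smpx* and *Rpl35*. Both patches are parts of the core that called these genes, so the count over patches is a description. In the smaller patch 1 UMI stood at 31.3 CPM, and *Serpinb1a*, *Ufsp1*, *Arl6ip5* and *Slfn5* were above on 1 UMI each. Some of the 50 genes reached the minimum only through their core UMIs, so their values are a description. They were *Tnnt2*, *Mymx*, *Mymk*, *Tceal7*, *Serpinb1a*, *Ufsp1*, *Klhl30* and *Casq2*, the last with 49 UMIs in the other marked members. With the minimum of 50 UMIs applied to the other marked members alone, 42 of 8493 genes (0.495%) were higher and 6 lower. With the core threshold lowered to 5 UMIs of the 4 genes, 21 genes were higher and 0 lower. The 6 lower genes were *Fxyd3*, *Dsp*, *Sbsn*, *Elovl6*, *Cd200* and *Ints6l*, the last 2 with 0 UMIs in the core.

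The fusion genes *Mymx* and *Mymk* were sparse outside the core, while the fusion list as a whole was at 843 CPM in the other marked members and 1442 CPM in the core. Both genes reached the count minimum only through their core UMIs, so their values are a description. *Mymx*, whose small protein completes the fusion of myoblasts, had 0 to 13 UMIs a core spot with a median of 0, was found in 6 of 14 core spots and in 20 of the 306 others, and its log2 ratio of core over other marked members was 4.91 (4.06 to 5.79). *Mymk*, which starts membrane mixing, was found in 8 of 14 and 35 of 306 spots and was 14.9-fold higher (log2 3.90, 3.18 to 4.61). With *Cav3*, a caveolin of the muscle membrane (log2 3.47), and the laminin receptor *Itga7* (log2 1.69), *Mymx* and *Mymk* made 4 called higher of the 12 measured genes of the fusion list. The share over all genes tested was 0.575%, and the list's median log2 ratio was 0.01. With the minimum on the other marked members alone, *Cav3* and *Itga7* remained of 9 measured genes. The adhesion genes *Cdon* and *Itgb1*, which many cells express, had log2 ratios of -0.82 (-2.04 to 0.18) and -0.18 (-0.56 to 0.19).

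Developmental sarcomere genes outside the rule were high in the core as well. Of 10 measured genes of that list, 6 were called higher, against 0.575% of all genes tested, and none lower, with a median log2 ratio of 2.04. With the minimum on the other marked members alone, 5 of 8 were higher, against 0.495%. The summed list was at 3378 CPM in the core and 1079 CPM in the other marked members (3.13-fold). *Tnnt2*, cardiac troponin T, had 0 to 14 UMIs a core spot with a median of 1.5 and at most 3 in any other marked member. Its ratio was 31.3-fold (log2 4.97, 4.28 to 5.68), a description, since it reached the count minimum only through its core UMIs. *Tnni1*, slow troponin I, had 0 to 22 UMIs a core spot with a median of 6 and was 23.9-fold higher. *Tnnc1*, slow and cardiac troponin C, was 18.4-fold higher, and the stretch-linked Z-disc protein gene *Csrp3* 13.5-fold. The intermediate filament gene *Nes* (3 UMIs at the median, up to 23) and the myosin binding protein gene *Mybph* (4.5 UMIs at the median, up to 15) had log2 ratios of 1.61 and 2.08. The smooth muscle actin gene *Acta2*, also on this list, did not differ beyond its interval (log2 -0.08, -0.41 to 0.23).

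The slow fibre list had the highest summed ratio, 6.94-fold, but its myosin genes were almost unmeasured. Of its 7 measured genes 6 were called higher, against 0.575% of all genes tested (5 of 6, against 0.495%, with the minimum on the other marked members alone). *Myh7*, the slow myosin heavy chain, had 0 UMIs in the core and 1 in the other marked members, *Myl2* had 0 in both and *Myl3* had 0 and 4. The 6 called genes were *Tnni1*, *Tnnc1* and *Csrp3*, shared with the developmental list, and *Casq2* (log2 4.48), *Mb* (log2 2.36) and *Fhl1* (log2 2.56). The value of *Casq2* is a description, since it had 49 UMIs in the other marked members and reached the count minimum only through its core UMIs. *Casq2* encodes a calcium store protein of heart and slow muscle, *Mb* myoglobin and *Fhl1* a LIM-domain protein of growing muscle.

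Adult fast fibre genes differed from one another. *Myh1*, the 2X myosin, had 415 UMIs in the core and was 4.77-fold higher than in the other marked members (log2 2.25, 2.09 to 2.41), with 3 to 116 UMIs a core spot and a median of 13. *Myh2*, the 2A myosin, was 7.44-fold higher, but 24 of its 27 core UMIs came from 1 spot. *Myh4*, the 2B myosin, had 22 to 155 UMIs a core spot and 16 to 217 in the others, with medians of 65.5 and 64, and a log2 ratio of -0.21 (-0.30 to -0.12). Over the whole list of 18 genes, 2 were called higher, against 0.575% of all genes tested, and none lower, and the sum was 1.20-fold higher (log2 0.27). In marked spots with 5 or more UMIs of the 4 genes, set against all other marked spots, the sum was at log2 -0.21 (-0.23 to -0.19), a comparison that changes both sets. Shared sarcomere genes included 4 called of 16, against the same 0.575%, namely *Mybpc1* (log2 3.11), *Actn2* (2.75), *Des* (2.10) and *Cryab* (1.45), whereas titin (*Ttn*) was at log2 0.48 (0.23 to 0.72).

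Of the receptor and synapse list 1 of 2 measured genes was called higher, of the tendon and junction list 1 of 3, of the imprinted growth list 1 of 12 and of the muscle growth regulators 1 of 7. Over all genes tested the share was 0.575%, and a single called gene says little about its list. The muscle growth regulators had a median log2 ratio of -0.045 and a summed ratio of 0.12 (-0.023 to 0.27). *Chrna1*, the alpha subunit of the muscle acetylcholine receptor, had 0 to 14 UMIs a core spot with a median of 2 and was 10.4-fold higher (log2 3.39, 2.85 to 3.90), with 23 of its 50 core UMIs in the 2 spots of the smaller patch. The fetal gamma subunit *Chrng* had 8 UMIs in the core and 16 in the other marked members, and the adult epsilon subunit *Chrne* 0 and 16. Both were below the count minimum. *Thbs4*, a matrix protein of tendon and muscle junction, was found in 13 of 14 core spots and was 13.2-fold higher, while *Tnmd*, the tendon marker of the same list, was at log2 0.34 (-1.14 to 1.52). *Igf2*, a growth factor of fetal muscle and of new fibres, was at log2 2.54 (2.03 to 3.03), and its imprinted neighbour *H19* at 1.12 (0.93 to 1.31). *Sln*, a regulator of the calcium pump, was at log2 3.14 (2.52 to 3.75).

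Satellite cell genes were too sparse to compare. *Pax7* had 1 UMI in the core and 2 in the other marked members, *Myf5* likewise 1 and 2, and *Myod1* 3 and 12. None of the 6 measured genes of the myogenic factor and satellite cell list was called, with a median log2 ratio of 0.20. Of 15 cell cycle genes none was called, and their sum was lower in the core (396 and 590 CPM, log2 -0.58, -0.93 to -0.24).

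Markers of other cells differed between the core and the other marked members as follows. The pericyte and smooth muscle list was at 1599.7 and 888 CPM (log2 0.85, 0.67 to 1.02), with *Des*, which muscle fibres also express, the 1 of 9 genes called and a median log2 ratio of -0.42. Neutrophil genes were at 103 and 166 CPM (log2 -0.69, -1.43 to -0.03). The epidermis list was at 2158 CPM in the core and 4822 CPM in the other marked members, fat at 3481 and 5471 CPM, endothelium at 2728 and 3889 CPM, and red blood cell genes at 184 and 356 CPM. Of the 503 core UMIs of the endothelium list, 430 were of *Fabp4*. This gene was at 2332 CPM in the core, and at 4355 and 2324 CPM in the other marked members with 2% muscle or more and with less. Macrophage genes (4631 and 4945 CPM), matrix fibroblast genes (73352 and 74464 CPM) and granulation tissue genes (8806 and 9218 CPM) had ratios whose counting intervals included no change. Of the epidermis genes, *Dsp* was called lower, and *Krt14* and *Krt5* had log2 ratios of -1.25 and -1.32. The part of these lists in the results was not tested.

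**Figure D4:**
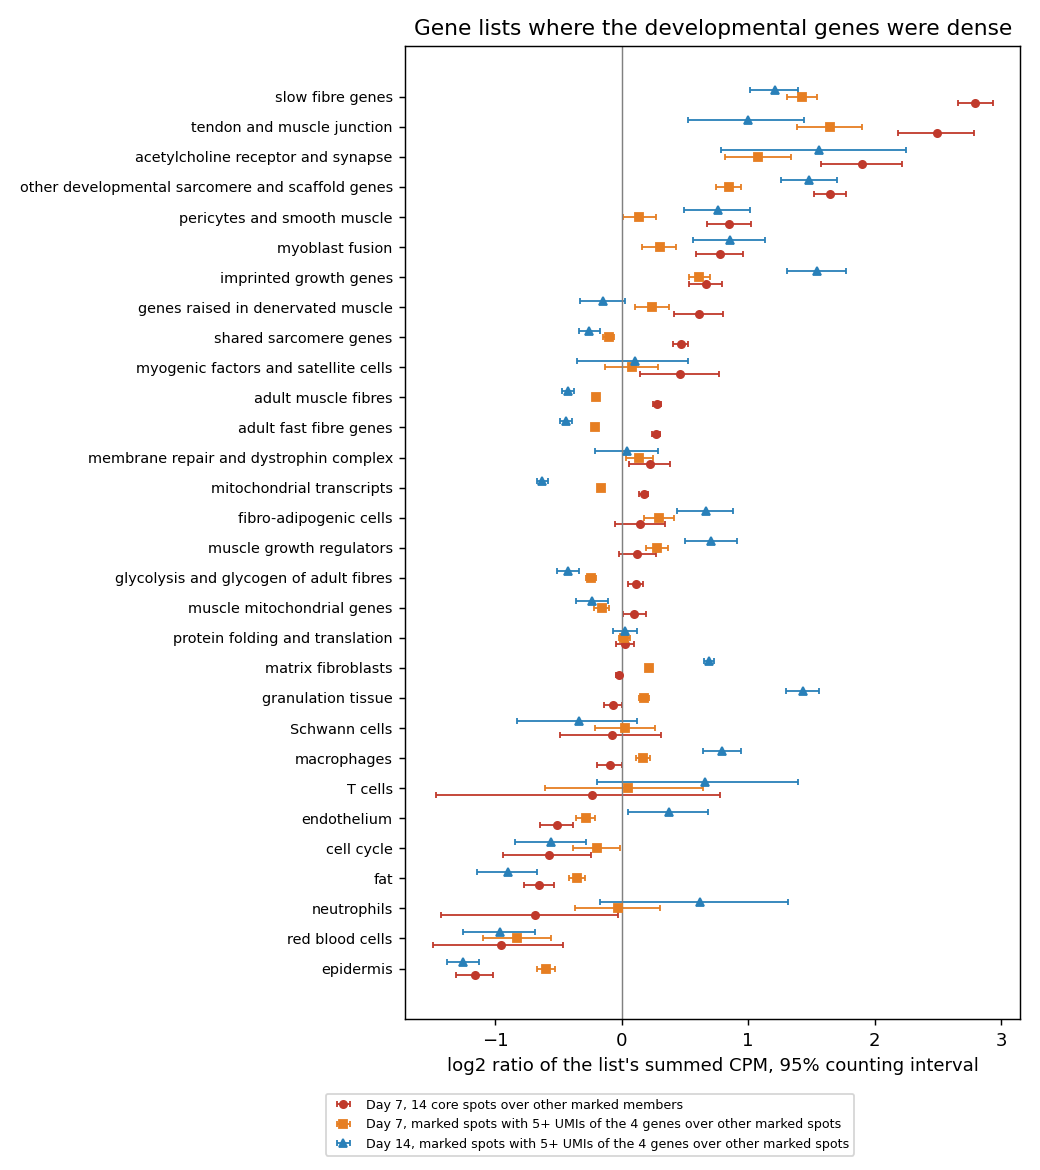
Log2 ratio of the summed CPM of each gene list with 95% counting intervals, for the 14 core spots over the other marked members on Day 7, and for marked spots with 5 or more UMIs of the 4 genes over other marked spots on Day 7 and Day 14. The slow fibre, junction, receptor and developmental lists are above 0 in all 3 comparisons, and the epidermis, fat and red blood cell lists below 0.

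Promoter sequence is shown for some genes higher in the core because *Myog*, a gene used to choose it, encodes a factor of a family that binds E-box sequences. Whether any such factor acts on these genes was not tested. The letters CAGCTG, an E-box that reads the same on both strands, were searched in the 250 bases upstream of each annotated start in the RefSeq promoter table (GRCm38.p6). Of the 50 genes, 35 had an entry, and 15 of these (42.9%) held CAGCTG, against 14.7% of all 27025 genes in the table. These shares are a description. The genes were chosen by their values, and some, such as *Tnnt2*, reached the count minimum only through their core UMIs. The wider share is over all genes in the promoter table, not over the genes tested in the contrast. A gene with several starts has more chances of a match, and a match of letters is not a binding site. For 5 of the genes the stretch around the match is given 5′ to 3′, with CAGCTG in capitals, for the troponin T gene *Tnnt2* (chr1:135836084-135836212, plus strand), the receptor gene *Chrna1* (chr2:73580347-73580460, minus strand), *Mybph* (chr1:134193339-134193404, plus strand), the desmin gene *Des* (chr1:75360226-75360291, plus strand) and *Cav3* (chr6:112459369-112459434, plus strand).
Tnnt2: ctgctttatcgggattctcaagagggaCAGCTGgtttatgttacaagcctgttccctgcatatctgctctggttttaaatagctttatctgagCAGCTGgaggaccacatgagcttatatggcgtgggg
Chrna1: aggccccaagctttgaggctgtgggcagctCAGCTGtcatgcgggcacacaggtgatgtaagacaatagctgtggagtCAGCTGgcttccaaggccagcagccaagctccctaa
Mybph: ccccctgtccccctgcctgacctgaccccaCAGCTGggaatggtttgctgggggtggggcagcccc
Des: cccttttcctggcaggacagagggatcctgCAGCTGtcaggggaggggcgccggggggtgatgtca
Cav3: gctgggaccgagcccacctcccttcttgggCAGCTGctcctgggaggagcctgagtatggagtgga
*Tnnt2* and *Chrna1* each held the letters 2 times, at 223 and 157 bases and at 92 and 44 bases before the start.

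The other members differed in muscle content and place. Inside the tissue mark, 192 further members had *Acta1* plus *Ckm* at 2% or more of UMIs and 114 had less. The second set was deeper, with a median of 13628 UMIs against 7628, and richer in the granulation list, at 11368 CPM against 6896. *Actc1* was at 884 CPM (839 to 931) in the first and 412 CPM (383 to 444) in the second, and *Myog* had 58 and 37 UMIs in them.

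Most members lay outside the tissue mark and were rich in adult fast muscle. These 533 spots, 59.1% of all members, had *Acta1* plus *Ckm* at 6.77% of UMIs at the median and the adult fast fibre list at 145661 CPM, against 94852 CPM in the mature muscle spots. *Actc1* was at 2682 CPM (2616 to 2751), about 96.4% of the rule genes' UMIs. *Myh8* was at 19.8 CPM (14.4 to 26.5), *Myog* at 18.0 CPM (12.9 to 24.4) and *Myh3* at 2.64 CPM (0.97 to 5.74). *Mymk* had 5 UMIs in all these spots and *Mymx* 8. All 5 genes took part in choosing the sets, so these levels are a description.

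A further 49 members outside the mark were deep spots of low muscle content. They had a median of 12276 UMIs, the fat list at 35075 CPM, the endothelium list at 18610 CPM and mitochondrial transcripts at 176959 CPM. Of the 15009 UMIs of the endothelium list in these spots, 14428 were of *Fabp4*, so the level of this list need not describe endothelium. *Ucp1*, the uncoupling protein of brown fat, was at 1535 CPM (1451 to 1623), found in 37 of the 49 spots, which held 52.9% of its UMIs on the slide. *Actc1* was at 334 CPM (295 to 376), and *Mymk* and *Mymx* had 0 UMIs.

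Within muscle outside the tissue mark, the ratio of the actins differed between places, without a steady order across the slide. *Actc1* per 1000 *Acta1* UMIs was 58.7 (39.5 to 84.4) in the 45 muscle spots 16 to 24 pitches across the slide, which held 31 *Actc1* UMIs in all. It was 26.7 (24.0 to 29.7) in the 241 spots 24 to 32 pitches across and 39.1 (35.3 to 43.2) in the next 242. It was 75.9 (72.7 to 79.3), 80.4 (77.2 to 83.7) and 62.2 (59.5 to 65.0) in the 3 following bands of 8 pitches. The number of members went from 1 in the first of these bands to 22, 19, 142, 169 and 179. Marked muscle spots had between 42.7 and 57.3 per 1000 in every band with 20 or more spots.

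Members were also set against the 377 mature muscle spots, as the rule gives it. Of 10476 genes with 50 or more UMIs over both sets, 950 were 2-fold or more higher in members (9.07%) and 127 were 2-fold or more lower (1.21%), with a median log2 ratio of 0.18 over all genes tested. The mature muscle spots held 424938 UMIs and the members 6619518. With the nearer bound of the interval beyond 2-fold, 3 genes were higher (0.0286%) and 7 lower (0.0668%). Scaling by TMM or DESeq2 size factors moved all log2 ratios by -0.17 or -0.18 and gave 659 higher and 254 lower genes, or 656 and 261. After thinning each spot to 500 UMIs, 21 genes were 2-fold higher and 26 lower. The 3 higher genes, *Dok1*, *Ezh1* and *Syk*, had 229, 160 and 134 UMIs in members and 0 in the mature muscle spots, at least 4.90-fold, 3.42-fold and 2.87-fold higher at a floor of 3 UMIs over the set. They were tested only because of their UMIs in members, and the calls ended against mature muscle at 5%, where the log2 bounds were 0.46 for *Dok1* and 0 for *Ezh1* and *Syk*, and with marked spots only (0.42, 0 and 0). They encode an adaptor protein, a histone methyltransferase and a kinase of blood cells. In all, 77 tested genes were at 0 in the mature muscle spots. *Tmsb10*, an actin-binding thymosin, had more UMIs in both sets, at 1353 and 734 CPM (log2 0.88, 0.72 to 1.05), and the lymphatic chemokine gene *Ccl21a* was at 141 and 51.8 CPM (log2 1.45, 0.84 to 2.13).

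Of the 7 lower genes, 5 encode sarcomere proteins or myoglobin. *Myh1* was at 468 CPM in members and 1765 CPM in the mature muscle spots (log2 -1.92, -2.03 to -1.80), *Myh2* at 19.8 and 87.1 CPM (log2 -2.14, -2.67 to -1.57), and *Mb* at 160 and 485 CPM (log2 -1.60). *Actn2* and *Mybpc1* had log2 ratios of -1.49 and -1.52. The other 2 were *Lars2*, a mitochondrial leucyl-tRNA synthetase gene (log2 -1.58), and *Gm42418* (log2 -1.06). These were not stable, since *Lars2* was at -0.35 against mature muscle at 5% and -0.79 with marked spots only, and *Gm42418* at -0.19 against mature muscle at 5% and -0.47 with the mean of spot CPM. *Myh1*, *Myh2*, *Mb*, *Actn2* and *Mybpc1*, lower in members as a whole, were each among the 50 genes called higher in the core than in the other marked members. Marked mature muscle spots were not below the core in the same way. *Myh1* was at 2250 CPM in the core and 5195 CPM in those spots, *Myh2* at 146 and 346, and *Mb* at 797 and 1544. *Actn2* was at 439 and 461 CPM, and *Mybpc1* at 461 and 403 CPM. Place moved with the lower *Myh1* of members: 451 of the 750 *Myh1* UMIs of the mature muscle spots came from the 48 of them inside the tissue mark. *Myh1* was at 5195 CPM there, against 884 CPM in the 329 outside.

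As lists, adult fast fibre genes were at 73278 CPM in members and 94852 CPM in mature muscle spots (log2 -0.37, -0.39 to -0.36). Of the 18 genes 2 were 2-fold lower, against 1.21% of all genes tested, and none higher, with a median log2 ratio of -0.38. With only the 732 members that themselves had 2% muscle, the list was higher in members (log2 0.17), and inside the tissue mark alone it was lower (log2 -1.35). The developmental list without the rule genes was at 1161 and 1033 CPM (log2 0.17, 0.03 to 0.31, but -0.0053 and -0.011 with the TMM and DESeq2 factors), none of its 11 measured genes was 2-fold apart, and their median was 0.20. In the fusion list 1 of 13 measured genes was 2-fold higher, against 9.07% of all genes tested. This was *Mymk*, with 76 UMIs in members and 2 in the mature muscle spots (log2 1.29, -0.62 to 4.36, and -0.44 against mature muscle spots of 2000 UMIs). The slow fibre list was at 479 and 810 CPM (log2 -0.76), although the median of its genes was 0.30. *Mb* was the 1 gene of 8 that was 2-fold lower, against 1.21% of all genes tested. Granulation genes were at 6251 and 4255 CPM, with *Adam12* the 1 of 10 that was 2-fold higher, a share near that 9.07%. Matrix fibroblast genes were at 50897 and 33786 CPM and macrophage genes at 3623 and 2622 CPM, with no gene of either list 2-fold apart.

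Isoform pairs gave the share of the early member within each pair. *Tnni1* made up 17.2% of *Tnni1* plus *Tnni2* UMIs in the core (95% binomial interval 14.4 to 20.3%), 1.15% (0.92 to 1.42%) in the other marked members, 0.148% in unmarked muscle members and 0.342% in mature muscle spots. *Tnnc1* made up 9.10% (7.24 to 11.3%) of the troponin C pair in the core and 0.704%, 0.0659% and 0.257% in the same 3 sets. *Tnnt2* made up 4.66% (3.47 to 6.09%) of its pair with *Tnnt3* in the core and 0.180%, 0.0480% and 0.136% elsewhere. In each of the 3 troponin pairs the core was apart from the other sets beyond counting error, though *Tnnt2* is a description, as its count minimum was reached only through the core. The order of the other sets was not settled. For *Tnnt2* the other marked members (0.120 to 0.258%) and mature muscle spots (0.055 to 0.280%) overlapped, and mature muscle held 9 *Tnni1*, 9 *Tnnc1* and 7 *Tnnt2* UMIs. In the creatine kinase pair the intervals overlapped, *Ckb* making up 1.56% (0.94 to 2.42%) of its UMIs in the core and 2.19% (2.02 to 2.37%) in the other marked members. *Eef1a1* made up 91.8% and 90.6% of the elongation factor pair. In unmarked muscle members the adult *Eef1a2* was more frequent, with *Eef1a1* at 59.5% (58.1 to 60.9%).

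On the other days the same rule found fewer members. It took 1 of 1194 spots on Day 3 and 185 of 2469 on Day 14, 48 of these inside the tissue mark. The Day 3 spot had 7 *Myog* UMIs among 15297 and none of the other 4 genes. In marked muscle spots, *Actc1* per 1000 *Acta1* UMIs was 0.955 (0.458 to 1.76) at Day 3, 53.4 (50.9 to 56.0) at Day 7 and 12.2 (11.2 to 13.3) at Day 14. Outside the mark it was at 1.06, 64.6 and 20.2. The sum of *Myh3*, *Myh8*, *Myl4* and *Myog* in marked muscle was 1.05 (0.525 to 1.88), 21.4 (19.9 to 23.0) and 4.25 (3.66 to 4.90) per 1000 in the same order, and outside the mark 0.628, 3.08 and 0.762. All 4 series were highest on Day 7, and on Day 3 and Day 7 the intervals did not overlap. Over all spots *Mymk* had 1, 97 and 15 UMIs and *Mymx* 0, 73 and 3 on Day 3, Day 7 and Day 14. With 1 section a day, day and animal cannot be told apart.

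**Figure D5:**
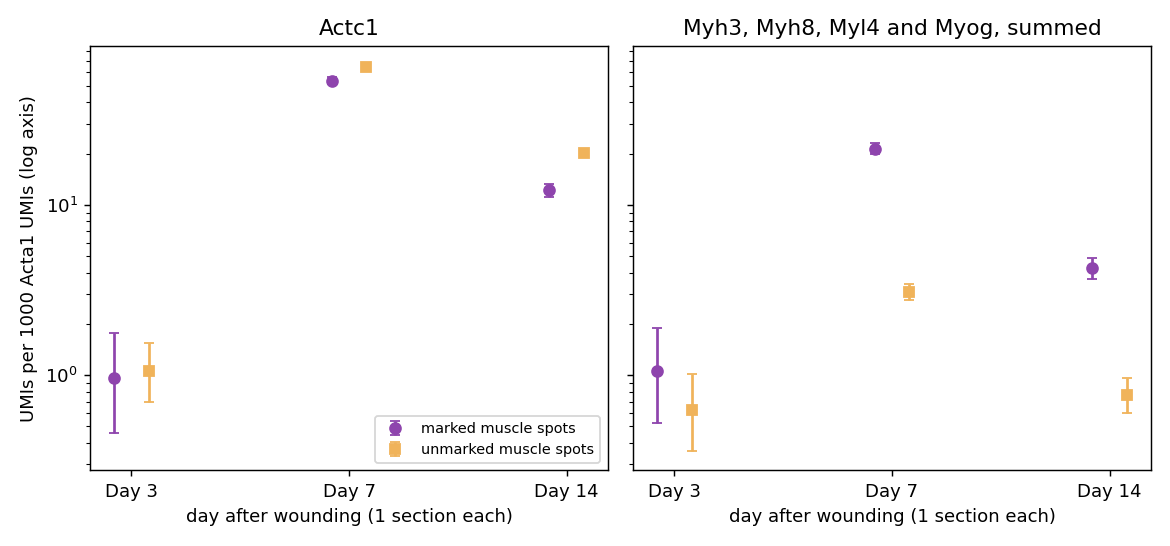
*Actc1* (left) and the sum of *Myh3*, *Myh8*, *Myl4* and *Myog* (right) in UMIs per 1000 *Acta1* UMIs (log axis) by day, in muscle spots inside and outside the tissue mark, with 95% counting intervals and 1 section a day. *Actc1* in marked muscle is 0.955, 53.4 and 12.2 at the 3 times, highest at Day 7.

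A later section, that of Day 14, had no part in choosing the core. On it, 10 marked spots had 5 or more UMIs of the 4 genes. They spread over 7.5 pitches in 2 rows with a median of 10106 UMIs, against 4826 in the other 679 marked spots. Other cells' lists differed there too, with granulation genes at 4728 against 1755 CPM (log2 1.43), macrophages at log2 0.79, matrix fibroblasts at 0.69 and epidermis at -1.25, and their part in the result was not tested. The 3 highest had 36, 29 and 28 UMIs of these genes, and *Actc1* was at 1, 9 and 2 UMIs there. Of the 50 genes higher in the Day 7 core, 48 had 20 or more UMIs in marked Day 14 spots, and 31 of these (64.6%) were 2-fold or more higher in the 10 spots, against 9.47% of 8655 genes. *Tnnt2* had 20 UMIs in the 10 spots and 22 in the other 679 (log2 5.30, 4.35 to 6.24), *Tnni1* 24 and 54 (log2 4.27, 3.51 to 4.99) and *Nes* 31 and 139 (log2 3.27, 2.66 to 3.84). *Mymk*, with 8 and 5 UMIs (log2 6.12, 4.32 to 8.08), was below the minimum of 20 and is not among the 48 genes. *Chrna1* had 2 and 19 UMIs (log2 2.19, -0.95 to 4.24), an interval that included no change. *Myh1* was at log2 0.83 and *Myh4* at -0.95, the same order of the 2 myosins as on Day 7, and *Actc1* at 0.35. *Mymx* had 1 UMI in the 10 spots.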

How the data were processed

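Spatial expression was measured with 10x Visium in 3 sections of wounded skin, 1 per day. The submitters' processing notes name Space Ranger 1.3.0 and mm10. The authors deposited raw UMI counts of 32285 genes in 4992 spots a slide, with a tissue mark. Here counts were pooled over sets of spots and divided by all their UMIs to give CPM. Sums, shares and ratios carry exact Poisson, Clopper-Pearson and conditional binomial 95% intervals, which cover counting error only. Ratios were taken for genes with 50 or more UMIs over both sets, and a set at 0 was placed at 3 UMIs. No p-value was computed, since there is 1 section a day.

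Members and gene lists were chosen with earlier results of these data known. Named genes were the rule genes, the 15 highest and 15 lowest ratios of members over mature muscle ranked on whichever end of the interval lay closer to equality, and list genes. Unnamed gene models were not described. The core, its contrast and the promoter stretches were added after values were seen. The tissue mark was used to divide members but not to choose them. Alternatives were the mean of spot CPM, other spot sets and thresholds, thinning, TMM factors (edgeR 4.0.16), size factors (DESeq2 1.42.0) and a denominator without muscle genes. Calculations used Python 3.11.15, numpy 2.4.6, scipy 1.17.1, pandas 2.3.3 and R 4.3.3, with matplotlib 3.10.9 for the figures. The contrast was tried on simulated Poisson counts drawn from the pooled profiles. The simulation held no variation between spots, so it cannot show how the calls behave where UMIs cluster in few spots. Neither doublet calling nor deconvolution was applied.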

Additional observations from a re-analysis of the deposited data

Results flagged for a closer look

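The endothelium list moved in opposite directions on Day 7 and Day 14 in marked spots with 5 or more UMIs of *Myh3*, *Myh8*, *Myl4* and *Myog* against the other marked spots. On Day 7 its log2 ratio was -0.28 (95% counting interval -0.36 to -0.21, 3159 against 3847 CPM), and on Day 14 it was 0.37 (0.05 to 0.68, 838 against 648 CPM). The difference between the days was not tested, since each day has 1 section, and the Day 14 spots held 87 UMIs of the list. The Day 7 spots held 1654 UMIs of the list. In the core, which is a part of these spots, 430 of the list's 503 UMIs were of 1 gene, *Fabp4*. The share of *Fabp4* over all the compared spots is not given for either day, and the ratio need not describe endothelium. The fat list was lower in the same comparison on both days (log2 -0.35 and -0.90).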

How the results depend on the processing

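The set of members depended on depth and on *Actc1*. Against 902 members, there were 320 among marked spots only, 370 with 10 UMIs of the 5 genes, 141 after thinning to 1000 UMIs and 44 without *Actc1*, while 1000 UMIs a spot and 3 UMIs of the 5 genes stayed within 1.5 times. Against 950 genes 2-fold higher in members, there were 1562 with marked spots only, 478 with members of 10 UMIs, 2172 with mature muscle at 5%, 509 with members of 2% muscle, 21 after thinning to 500 UMIs and 3 with the interval beyond 2-fold. Against 127 lower genes, there were 372 with the mean of spot CPM, 582 with marked spots only, 63 with members of 10 UMIs, 465 with mature muscle at 5%, 539 with mature muscle spots of 2000 UMIs, 26 after thinning, 254 with TMM, 261 with DESeq2 size factors, 327 and 1066 with gene minimums of 20 and 1 UMI, and 7 with the interval beyond 2-fold. TMM and the DESeq2 factors left 659 and 656 higher genes.

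The adult fast fibre list (log2 -0.37) turned positive with the mean of spot CPM (0.26), members of 2% muscle (0.17) and thinning (0.26). It was -1.35 with marked spots only, -0.060 with members of 10 UMIs, -1.11 with mature muscle at 5%, -0.48 with mature muscle spots of 2000 UMIs, -0.55 with TMM and with DESeq2 factors, and -0.43 with a denominator without muscle genes. The developmental list (log2 0.17) turned negative with marked spots only (-0.16), TMM (-0.0053) and DESeq2 factors (-0.011), and was 0.33 with the mean of spot CPM, 0.38 with members of 10 UMIs, 0.33 with members of 2% muscle and 0.39 after thinning. The cause was not tested. Of 460 values of 46 named genes, 37 values of 13 genes had the opposite sign to the one reported. In 30 of these the reported ratio was under 2-fold, as for *Myh4* (-0.45), which was 0.17 with the mean of spot CPM and 0.17 after thinning. The other 7 were *Lor* with marked spots only (0.072), with mature muscle at 5% (1.28) and with mature muscle spots of 2000 UMIs (0.21), *Lce1a1* in the last 2 settings (1.49 and 0.37), *2310050C09Rik* with mature muscle at 5% (1.10) and *Mymk* with mature muscle spots of 2000 UMIs (-0.44).

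In the core, a threshold of 30 UMIs gave 73 genes higher and 13 lower with the developmental list at log2 2.18, and 5 UMIs gave 21, 0 and 0.72, against 50, 6 and 1.65. Without the smaller patch there were 55 higher and 12 lower genes, and against marked members of 2% muscle 49 and 18. These settings and the interval rule were chosen after seeing the data. No paired analysis was possible because each day has 1 section and no replicate numbers. Depth limits the mature muscle spots (424938 UMIs) and the core (184412 UMIs), where a gene with few UMIs has a wide interval.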
